A study of Mus musculus with 36 samples.

Results

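Quadriceps muscle of 6-week-old dystrophic mice was compared directly with quadriceps muscle of 4-week-old mice of the same strain on 4 of the 36 dual-channel arrays of the study. The 4 arrays were chosen by their labels alone, as those that carry 6-week RNA in the Cy5 channel and 4-week RNA in the Cy3 channel. Of them, 2 hold beta-sarcoglycan-deficient mice (BSG, the strain used as a model of limb-girdle muscular dystrophy 2E) and 2 hold gamma-sarcoglycan-deficient mice (GSG, a model of type 2C). Both strains lack 1 subunit of the same complex in every mouse, at every age, and wild-type arrays are not analysed here, so a difference between the ages includes normal growth. Each array compares 1 mouse of 6 weeks with 1 mouse of 4 weeks, which gives 8 mice in 4 pairs. The arrays belong to 4 closed loops, 2 for each strain, in which each age was hybridised with the next one. Littermates were used at most ages per the study's text, so the 2 pairs of a strain may share a litter at each age, and the labels give neither sex nor litter. By the same text, mice of 1 strain and age were killed at a common time of day that differed between ages and strains, so age and time of day cannot be told apart here.

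Sarcoglycans are transmembrane proteins that, with dystrophin and dystroglycan, join the cytoskeleton of a muscle fibre to the matrix around it. Without 1 of them the others are lost from the membrane, which then tears under contraction. Damaged fibres degenerate, macrophages clear the debris, satellite cells rebuild the fibre, and over repeated rounds fat and connective tissue take its place. In young mice these events overlap with the growth of muscle after weaning, when fibre types and metabolism are still maturing.

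All values are log2 ratios of the 6-week over the 4-week signal, so that 0 is no difference and 1 is a ratio of 2. That direction and the base of the logarithm are likely from the dye labels and the range of values, and are not stated in the sources used here. They are differences between ages, not levels, and neither the tissue nor the loss of the mutated gene can be checked from them. The oligonucleotide of *Sgcb*, the gene mutated in BSG, gave 0.73 and -0.02 on the BSG arrays and 0.37 and -0.11 on the GSG arrays. The 2 spots printed for each oligonucleotide correlated with r = 0.743 and 0.589 on BSG arrays 1 and 2, and with 0.443 and 0.695 on GSG arrays 1 and 2. Between arrays the correlation over 8129 oligonucleotides lay between 0.243 and 0.433. *Xist*, the RNA that coats the inactive X chromosome of females, gave -0.33 and -2.73 on the BSG arrays and -0.19 and 3.66 on the GSG arrays. BSG array 2 and GSG array 2 therefore differ strongly in *Xist* between their 2 mice, in opposite directions, and counts without those arrays and with *Xist* as a covariate are given below. In bulk muscle, fewer cells of a type and less RNA per cell cannot be told apart.

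Between 4 and 6 weeks 3 genes with a name were called higher, *Hsd11b1*, *Slc1a5* and *Lipe*. Over both strains 7 of 8129 oligonucleotides passed an adjusted p of 0.05, which is 0.0861% of those tested. Of these, 5 were higher at 6 weeks (0.0615%) and 2 were lower (0.0246%). At an unadjusted p of 0.05 there were 1758, of which 1085 were higher and 673 lower. The mean of the 4 arrays was tested against 0 with limma, and p-values were adjusted by the Benjamini-Hochberg method over all oligonucleotides. The count depended on single arrays, with 10 calls without BSG array 1, 2 without BSG array 2, 2 without GSG array 1 and 3 without GSG array 2. On the 2 arrays with little difference in *Xist* alone, 0 were called by limma and 1278 passed an unadjusted p of 0.05. Scaling moved the split between directions. The count was 177 (168 higher, 9 lower) with arrays scaled to a common spread, 253 (234 higher, 19 lower) after quantile normalization and 3 (1 higher, 2 lower) after centring each array on its median.

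The first of the called genes, *Hsd11b1*, encodes the enzyme that regenerates active glucocorticoid from its inactive form inside the cell. Its log2 ratio was 1.73 and 1.11 on the BSG arrays and 1.80 and 1.11 on the GSG arrays. The ratios of the strains overlapped, with means of 1.42 in BSG and 1.46 in GSG. It rose by 1.44 ± 0.38 (SD, n = 4 pairs, limma adjusted p = 0.0240). *Slc1a5*, a transporter that brings glutamine and other neutral amino acids into the cell, had ratios of 1.43 and 0.92 in BSG and 1.06 and 1.50 in GSG. It rose by 1.23 ± 0.28 (SD, n = 4, limma adjusted p = 0.0240), again with overlapping strains. *Lipe* encodes hormone-sensitive lipase, which releases fatty acids from stored fat in adipocytes and other cells. It gave 0.99 and 0.90 on the BSG arrays and 1.31 and 1.24 on the GSG arrays, so both GSG ratios lay above both BSG ratios. Its mean was 1.11 ± 0.20 (SD, n = 4, limma adjusted p = 0.0240). The other 2 oligonucleotides that were called higher and the 2 that were called lower have no gene name in the tables used here.

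These calls stand close to the threshold. Over 19 other settings, *Hsd11b1* was called in 10, *Slc1a5* in 8 and *Lipe* in 7, always with a positive ratio. With 1 array left out, *Hsd11b1* and *Lipe* stayed under the threshold only without BSG array 1, and *Slc1a5* in none of the 4 cases. The mean of *Hsd11b1* stayed between 1.32 and 1.76, that of *Slc1a5* between 1.05 and 1.33, and that of *Lipe* between 0.745 and 1.22. In data simulated in the layout of this comparison, the test found 0% of oligonucleotides changed by 0.5, 87.5% of those changed by 1 and 99.5% of those changed by 2. The simulated noise was independent between arrays, with a spread taken from all 36 arrays, so these rates may not hold for the real 4. On the real arrays *Pcx*, *Trf*, *Orm1* and *Gsn*, with means between 1.27 and 1.51, missed the threshold. Changes above 1 could thus also go uncalled.

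Every array of the study but those that close a loop carries the later age in Cy5, so on the 4 arrays alone a dye effect of an oligonucleotide cannot be told apart from age. In a closed loop, however, the age differences sum to 0, and the mean of all 36 arrays is then a constant of the oligonucleotide. For *Hsd11b1* this constant was 0.05, for *Slc1a5* 0.18 and for *Lipe* 0.36. Taken relative to its loop, the estimate was 1.38 for *Hsd11b1* (adjusted p = 1.10e-04 in a limma fit of 36 arrays with a dye term), 1.05 for *Slc1a5* (adjusted p = 0.0179 in the limma fit) and 0.75 for *Lipe* (adjusted p = 0.0698 in the limma fit). The 2 unnamed oligonucleotides that were called lower behaved differently. Their means of -2.50 and -2.36 stood beside constants of -2.23 and -2.02 over all 36 arrays, and relative to their loops they were at -0.27 and -0.34. They are therefore not counted as lower at 6 weeks in what follows.

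The loop fit called 41 oligonucleotides (0.504% of those tested), 39 of them higher at 6 weeks, and 4 of the 41 are among the 7 above. Both fits use the same 4 arrays for this step and are not independent. With *Xist* added as a covariate it called 43. Below, "passed the loop fit" means an adjusted p under 0.05 in the limma fit with a dye term, and the loop estimate or median is free of the constant.

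**Figure D1:**
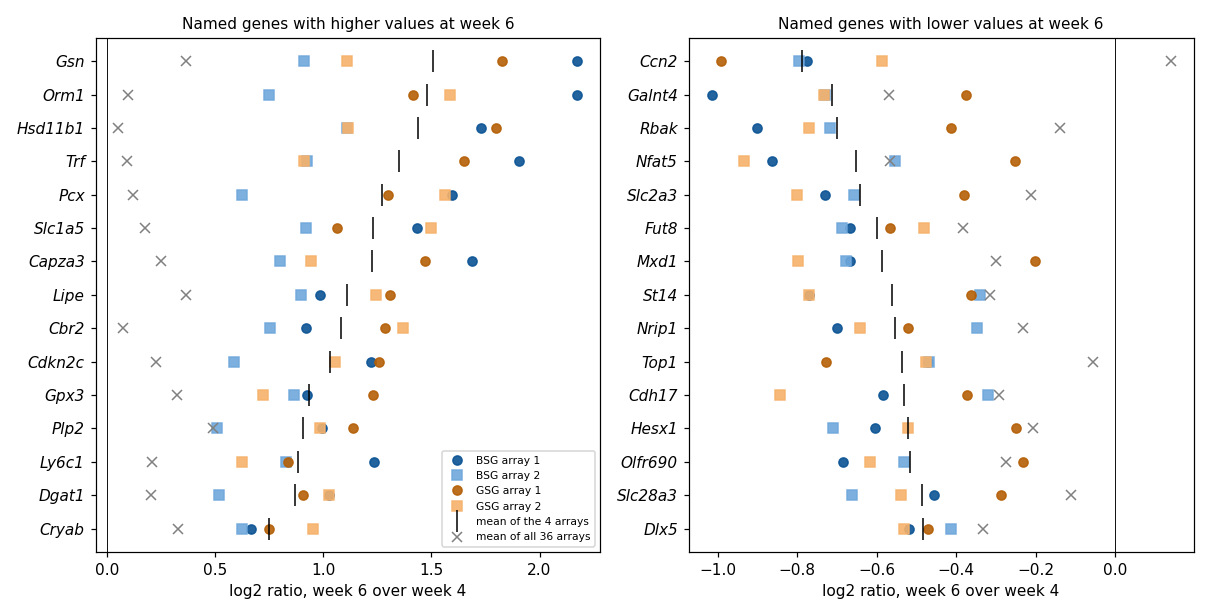
Log2 ratio of week 6 over week 4 (x axis) on each BSG and GSG array for the 15 genes named with higher and the 15 named with lower values, with the mean of the 4 arrays and the mean of all 36 arrays, which is the oligonucleotide's constant. The means of the higher genes reach 1.51 for *Gsn*, while those of the lower genes lie between -0.79 and -0.48. Without the constant, 8 of the 15 lower genes keep under 0.5 times their mean, against 1 of the 15 higher genes. The constant of *Ccn2*, the lowest of the lower genes, is 0.14.

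After the 3 called genes, the 12 named genes with the smallest p among those higher on all 4 arrays missed the threshold, with limma adjusted p between 0.0514 and 0.0544. They are given as values. Several belong to plasma or secreted proteins. *Orm1*, an acute-phase protein that the liver makes in quantity, gave 2.18 and 0.75 on the BSG arrays and 1.41 and 1.59 on the GSG arrays. *Trf* encodes transferrin, the carrier of iron in plasma, and gave 1.91 and 0.92 in BSG and 1.65 and 0.91 in GSG. *Gsn*, gelsolin, cuts actin filaments in the cell and in plasma, and gave 2.18 and 0.91 in BSG and 1.82 and 1.11 in GSG. For all 3 genes BSG array 2 was the lowest in BSG, and the strains overlapped. The mean was 1.48 for *Orm1*, 1.35 for *Trf* and 1.51 for *Gsn*, and all 3 passed the loop fit, with estimates of 1.39, 1.26 and 1.14. The library has 4 oligonucleotides for *Trf*, and they disagree: the second gave a mean of 1.24 and the others 0.39 and 0.03. *Gpx3*, the secreted glutathione peroxidase, had 0.93 and 0.87 in BSG and 1.23 and 0.72 in GSG, with a mean of 0.94 and a loop estimate of 0.61 that did not pass (adjusted p = 0.0953 in the limma fit).

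Enzymes of fuel metabolism were also among them. *Pcx* encodes pyruvate carboxylase, which refills the citric acid cycle, and gave 1.59 and 0.62 on the BSG arrays and 1.30 and 1.56 on the GSG arrays. *Dgat1*, which makes triglyceride in its last step, gave 1.03 and 0.52 in BSG and 0.90 and 1.03 in GSG. *Cbr2*, a carbonyl reductase, had 0.92 and 0.75 in BSG and 1.29 and 1.37 in GSG, with both GSG arrays above both BSG arrays. The means were 1.27 for *Pcx*, 0.87 for *Dgat1* and 1.08 for *Cbr2*, and each of these 3 genes passed the loop fit.

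The remaining 5 genes have varied roles. *Cdkn2c*, an inhibitor of the kinases that start the cell cycle, gave 1.22 and 0.59 in BSG and 1.26 and 1.06 in GSG. *Capza3*, a capping protein of actin filaments known from sperm, gave 1.69 and 0.80 in BSG and 1.47 and 0.94 in GSG. *Ly6c1*, a surface protein of endothelium and some leukocytes, gave 1.23 and 0.83 in BSG and 0.84 and 0.63 in GSG. All 3 genes passed the loop fit as well. *Plp2*, a membrane protein, had a mean of 0.91 and *Cryab*, the small heat shock protein that protects desmin and the Z-disc, had a mean of 0.75. For these 2 genes the loop estimates were lower, at 0.42 and 0.42, because their constants were 0.49 and 0.33. Of the 15 named genes, 11 passed the loop fit, and the median loop estimate was 0.98.

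The start regions of the higher genes were read from RefSeq (GRCm38.p6) because these genes share the direction of their ratios on 4 arrays, and 8 of the 15 genes were matched, with 14 annotated starts. The 250 bases before each start were searched on both strands for 5 motifs. The E-box CACGTG was found at 2 of the 14 starts, 1 each of *Lipe* and *Pcx*, and in 6.02% of 32851 start regions of all genes. The nuclear receptor element AGGTCA was at 2 of the 14 starts, of *Cdkn2c* and *Ly6c1*, close to the 14.02% of all start regions. The glucocorticoid response element ACANNNTGT was at 1 of the 14 starts, of *Lipe*, against 5.84% of all. The C/EBP motif TTGCNNAA (9.56% of all) and the core of the interferon-stimulated response element (2.98% of all) were at 0 of the 14 starts. A match is a description of letters and not a site. The regions of the 2 called genes found are given as examples with and without an E-box, which is in capitals. That of *Lipe*, at 1 of its starts, lies at chr7:25395988-25396237 on the minus strand, and its E-box begins 155 bases before the start. That of *Hsd11b1* lies at chr1:193242361-193242610, also on the minus strand.
Lipe: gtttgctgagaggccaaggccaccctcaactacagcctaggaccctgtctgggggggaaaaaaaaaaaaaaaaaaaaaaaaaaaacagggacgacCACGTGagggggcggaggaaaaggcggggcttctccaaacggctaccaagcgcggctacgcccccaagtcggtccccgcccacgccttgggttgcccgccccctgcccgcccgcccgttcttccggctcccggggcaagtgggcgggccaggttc
Hsd11b1: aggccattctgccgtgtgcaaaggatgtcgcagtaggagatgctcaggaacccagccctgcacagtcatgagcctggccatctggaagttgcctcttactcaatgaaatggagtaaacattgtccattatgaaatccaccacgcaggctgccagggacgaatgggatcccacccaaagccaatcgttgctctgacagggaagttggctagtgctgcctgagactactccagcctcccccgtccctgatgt

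Further genes passed only the loop fit, and except for *Retnla* they were chosen after their values were seen. *Hp* encodes haptoglobin, which binds free haemoglobin, and gave 0.61 and 1.72 on the BSG arrays and 2.13 and 1.47 on the GSG arrays (loop estimate 1.35). *Mgst1*, a microsomal glutathione transferase, gave 2.72 and 0.52 in BSG and 1.72 and 1.16 in GSG (loop estimate 1.25). *Retnla*, a secreted product of alternatively activated macrophages and fat, gave 2.49 and 0.59 in BSG and 2.06 and 0.89 in GSG (loop estimate 1.23). In each of these genes 1 BSG array was the lowest of the 4. *Aoc3*, an amine oxidase of adipocytes and vessels, had a mean of 1.25, and *Chil3*, a chitinase-like protein of macrophages, had a loop estimate of 0.59.

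No gene with a name was called lower at 6 weeks by the test of the mean. The 15 named lower genes, which had the smallest unadjusted p with negative ratios on all 4 arrays, had means between -0.79 and -0.48 and limma adjusted p between 0.0543 and 0.0780. *Ccn2*, connective tissue growth factor, which fibroblasts and fibres make under strain and which takes part in fibrosis, gave -0.78 and -0.79 on the BSG arrays and -0.99 and -0.59 on the GSG arrays. The strains overlapped and all arrays lay below 0. Its mean was -0.79, and its loop estimate of -0.93 did not pass (adjusted p = 0.141 in the limma fit). *Slc2a3*, a glucose transporter, gave -0.73 and -0.66 in BSG and -0.38 and -0.80 in GSG and was the only gene of the 15 that passed the loop fit, at -0.43. *Top1*, DNA topoisomerase I, had a mean of -0.54 and a loop estimate of -0.48. For 8 of the 15 genes the loop estimate was under 0.5 times the mean, among them *Fut8* (-0.22), *Galnt4* (-0.14) and *Nfat5* (-0.09), whose other 2 oligonucleotides had means of -0.17 and -0.12. Over the 15 lower genes the median loop estimate was -0.29, and over the 15 higher genes it was 0.98.

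Genes of fat cells were more often higher than lower at 6 weeks. Of 21 measured adipocyte genes, 1 was called higher (*Lipe*), 10 were higher and 1 lower at an unadjusted p of 0.05, against 13.3% and 8.28% of all oligonucleotides. On all 4 arrays 9 were above 0 and 0 were below 0, against 14.1% and 17.4% of all. The list had a median of 0.41 and all oligonucleotides had a median of -0.03. *Pck1*, which makes glycerol for triglyceride in fat and glucose in liver, gave 0.70 and 0.53 in BSG and 0.80 and 0.84 in GSG. *Pnpla2*, adipose triglyceride lipase, which acts on fat before hormone-sensitive lipase does, gave 1.43 and 0.88 in BSG and 0.44 and 0.66 in GSG, with both BSG arrays above both GSG arrays. A further 3 adipocyte products were chosen after their values were seen. *Fabp4*, the fatty acid-binding protein of fat cells, gave 3.26 and 0.35 in BSG and 0.75 and 0.66 in GSG, and *Adipoq*, adiponectin, gave 0.12 and 0.22 in BSG and 0.21 and 0.63 in GSG. *Lep*, leptin, gave 0.16 and 0.41 in BSG and -0.08 and -0.06 in GSG. Of these 3 genes, *Fabp4* and *Adipoq* were above 0 on all 4 arrays, and *Fabp4* differed widely between the 2 BSG arrays. How much fat each muscle sample held was not measured.

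Genes of fatty acid use were less uniform. Of 23 genes, 1 was called higher (0.0615% of all), *Lipe*, which is also in the adipocyte list. At an unadjusted p of 0.05, 6 were higher and 1 lower (13.3% and 8.28% of all). In the loop fit, however, 2 were higher and 2 lower (7.11% and 4.49% of all), with a loop median of 0.05. *Cpt2*, which passes fatty acids to oxidation in mitochondria, had a mean of 0.58 and a loop estimate of 0.27. *Lpl*, the lipase of vessel walls that feeds fibres with fatty acids, had a mean of 0.43 and a loop estimate of 0.23.

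**Figure D2:**
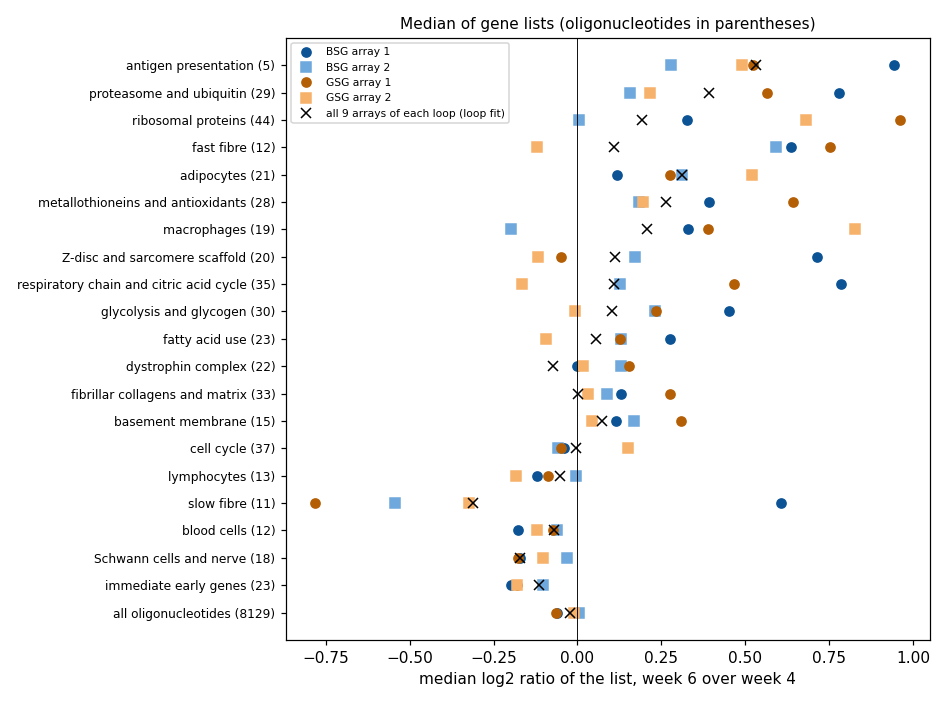
Median log2 ratio of week 6 over week 4 (x axis) for 20 gene lists and for all oligonucleotides, on each BSG and GSG array, with the median of the loop estimate as a cross. Proteasome, ribosomal protein and adipocyte lists lie at medians of 0.52, 0.48 and 0.41 over the 4 arrays, and all oligonucleotides at -0.03.

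Immune genes were higher at 6 weeks mainly in 2 groups, antigen presentation and macrophages. In part of the second group, both GSG arrays lay above both BSG arrays. Antigen presentation was measured by 5 oligonucleotides of 4 genes. Of them 4 were higher at an unadjusted p of 0.05 (13.3% of all) and 4 were above 0 on all 4 arrays (14.1% of all). The list had a median of 0.55. *Cd74*, the invariant chain that guides MHC class II molecules, gave 1.52 and 0.63 in BSG and 1.50 and 0.68 in GSG. The mean was 1.08 (SD 0.49, n = 4), and it passed the loop fit at 0.81 (adjusted p = 0.0233 in the limma fit). *B2m*, the light chain of MHC class I, gave 1.87 and 0.22 in BSG and 1.76 and 0.94 in GSG. In both genes BSG array 1 and GSG array 1 were the higher arrays of their strain. *Psmb8*, a subunit of the immunoproteasome that makes peptides for class I, gave 0.56 and 0.43 in BSG and 0.52 and 0.32 in GSG and passed the loop fit at 0.41. Its partner *Psmb9* gave 0.08 and -0.11 in BSG and -0.0033 and -0.29 in GSG.

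Of 19 macrophage genes, 8 were higher and 0 lower at an unadjusted p of 0.05 (13.3% and 8.28% of all), with a median of 0.34. In the loop fit 6 were higher and 0 lower (7.11% and 4.49% of all), with a loop median of 0.21. On all 4 arrays 4 were above 0 and 1 was below 0, against 14.1% and 17.4% of all, and the median was 0.33 and -0.20 on the BSG arrays and 0.39 and 0.83 on the GSG arrays. *C1qc* and *C1qa*, subunits of complement C1q that macrophages make, had similar ratios on each array. *C1qc* gave 1.40 and 0.36 in BSG and 1.24 and 0.60 in GSG, and *C1qa* gave 1.37 and 0.36 in BSG and 1.11 and 0.49 in GSG. *Ccl8*, a chemokine that attracts monocytes, gave 2.21 and 0.28 in BSG and 2.02 and 0.22 in GSG. In these 3 genes the larger values came from array 1 of each strain. *Tyrobp*, an adaptor of phagocyte receptors, gave 1.08 and 0.12 in BSG and 1.41 and 1.05 in GSG, and *Aif1*, an actin-binding protein of macrophages, gave 0.67 and 0.08 in BSG and 1.72 and 0.54 in GSG. Complement as a whole was measured by 13 oligonucleotides. At an unadjusted p of 0.05, 3 were higher and 1 lower (13.3% and 8.28% of all). Above 0 on all 4 arrays were 3, and below 0 were 2 (14.1% and 17.4% of all). Its median was 0.14, with -0.03 in BSG and -0.01 in GSG. By the loop fit 3 were higher and 0 lower (7.11% and 4.49% of all), with a loop median of 0.07.

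Another set of macrophage genes had higher ratios in GSG than in BSG. *Cd68*, a lysosomal protein of macrophages that was chosen after its values were seen, gave -0.05 and 0.25 in BSG and 1.12 and 1.48 in GSG. *Laptm5*, a lysosomal protein of blood cells, gave -0.10 and 0.19 in BSG and 1.08 and 1.20 in GSG, and *Lgals3*, galectin-3 of activated macrophages, gave 0.53 and -0.29 in BSG and 1.10 and 1.87 in GSG. In each of them both GSG arrays lay above both BSG arrays. Of the 19 macrophage genes, 8 had both BSG arrays below both GSG arrays and 0 had them above, against 17.5% and 17% of all oligonucleotides, and the difference had an unadjusted p under 0.05 on the GSG side for 6 of them (3.53% of all). The median over the macrophage genes was 0.04 in BSG and 0.82 in GSG. *Sirpa*, a receptor of macrophages that holds back phagocytosis, gave -0.32 and -0.29 in BSG and 0.80 and 1.84 in GSG. In the step before, week 4 over week 2.5, *Cd68* gave 1.60 and 0.67 in BSG and 0.31 and -0.07 in GSG. In that step *Lgals3* gave 1.36 and 1.25 in BSG and 0.72 and 1.10 in GSG. *Sirpa* gave 2.04 and 0.38 in BSG and 1.38 and 0.77 in GSG there, so its strains overlapped. The inflammation genes that the study singled out were measured here as 12 genes, because its lysozyme was matched to both *Lyz1* and *Lyz2*. They had a median of -0.04 in BSG and 1.13 in GSG, and 7 had both BSG arrays below both GSG arrays (17.5% of all). Their median over the 4 arrays was 0.65 and the loop median 0.40. In the loop fit 2 were higher and 0 lower at an unadjusted p of 0.05 (7.11% and 4.49% of all). The study chose its inflammation genes partly on these samples, so this list is not independent evidence of a direction.

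**Figure D3:**
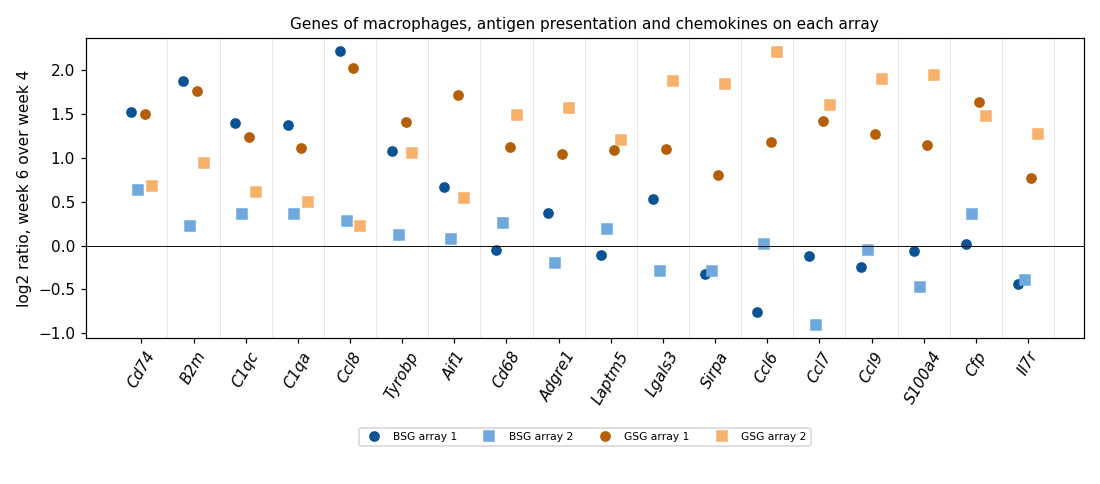
Log2 ratio of week 6 over week 4 (y axis) on each BSG and GSG array for 18 genes of macrophages, antigen presentation and chemokines. *Cd74*, *B2m*, *C1qc* and *C1qa* lie above 0 in both strains, while *Cd68*, *Ccl6*, *Ccl7*, *Ccl9* and *S100a4* lie above 1 on both GSG arrays and lower on both BSG arrays.

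The change from 4 to 6 weeks was then compared between the strains. The difference, BSG minus GSG, was called for 0 oligonucleotides by limma (0%), with 453 at an unadjusted p of 0.05 and a smallest adjusted p of 0.616. Within BSG alone 1 oligonucleotide was called (0.0123%), a lower one, and within GSG alone 3 were called (0.0369%), 1 higher and 2 lower, none of them with a gene name. With *Xist* as a covariate in the loop fit the difference was again called for 0 (524 unadjusted, smallest adjusted p of 0.367 in limma). The counts moved with single arrays. With 1 array left out, however, 1 strain is a single array, and its p-value rests on the spread between the 2 arrays of the other strain. Counts from such fits are therefore not given for the strains or their difference. The differences below are values and not calls, because 0 were called on the 4 arrays.

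On the side where GSG was higher, the 5 named genes were *Ccl7*, *Ccl9*, *S100a4*, *Cfp* and *Il7r*. *Ccl7*, a chemokine for monocytes, gave -0.12 and -0.90 in BSG and 1.42 and 1.60 in GSG, a difference of -2.02 ± 0.30 (SE). *Ccl9*, another chemokine of macrophages in mice, gave -0.25 and -0.05 in BSG and 1.26 and 1.90 in GSG, a difference of -1.73 ± 0.28 (SE). *S100a4*, a calcium-binding protein of motile cells, gave -0.06 and -0.48 in BSG and 1.15 and 1.94 in GSG. The BSG and GSG arrays were more than 1 apart in each of these genes. *Cfp*, properdin of the complement cascade, gave 0.02 and 0.36 in BSG and 1.63 and 1.47 in GSG, and *Il7r*, the receptor of interleukin 7 on lymphocytes, gave -0.44 and -0.40 in BSG and 0.77 and 1.27 in GSG. *Ccl6*, another chemokine with this order, gave -0.76 and 0.02 in BSG and 1.18 and 2.21 in GSG. In the step before, week 4 over week 2.5, *Ccl7* gave 2.16 and 1.62 in BSG and 0.18 and 0.87 in GSG. BSG also lay above GSG in that step for *Ccl9* and *Il7r*, whereas the strains overlapped for *S100a4*, *Cfp* and *Ccl6*. Relative to week 1, *Ccl7* stood at 1.32 in BSG and -0.08 in GSG at week 4. At week 6 it stood at 0.57 and 1.21 (means of 2 loops). Over 32 oligonucleotides for chemokines and cytokines as a whole the median was -0.03. Of them 9 had both BSG arrays below both GSG arrays and 4 had them above, against 17.5% and 17% of all. Of 13 lymphocyte oligonucleotides 1 had both BSG arrays below both GSG arrays and 4 had them above, against the same shares. Of 13 for complement 3 had them below and 2 above.

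On the side where BSG was higher, the 5 named genes were *Ckm*, *Casq1*, *Kera*, *Ier3* and *Mybph*. *Ckm*, muscle creatine kinase, gave 2.48 and 1.18 in BSG and -0.94 and -0.61 in GSG, a difference of 2.61 ± 0.42 (SE). *Casq1*, the calcium store protein of fast fibres, gave 2.04 and 0.93 in BSG and -0.87 and -0.81 in GSG, a difference of 2.32 ± 0.37 (SE). *Mybph*, a myosin-binding protein, gave 1.45 and 0.88 in BSG and -0.37 and -0.38 in GSG. These 3 genes were above 0 on both BSG arrays and below 0 on both GSG arrays. The same held for *Ier3*, an early gene of stress, at 1.84 and 1.19 in BSG and -0.16 and -0.92 in GSG, and for *Kera*, the proteoglycan keratocan, at 0.36 and 0.24 in BSG and -0.96 and -1.19 in GSG. One step earlier, week 4 over week 2.5, BSG loop 1 gave -2.64 for *Ckm*, -2.73 for *Casq1*, -2.00 for *Mybph* and -2.16 for *Ier3*. BSG loop 2 gave 0.77, 0.50, 0.33 and 0.70 for them, and the GSG loops lay between -0.58 and 0.39. One step later, week 8 over week 6, *Ckm* was at 2.27 and 0.61 in the GSG loops and at 0.56 and -0.46 in the BSG loops. Neighbouring arrays of a loop share a mouse, and how far single mice set these differences was not tested. Of 20 oligonucleotides for Z-disc and sarcomere scaffold proteins, 7 had both BSG arrays above both GSG arrays and 2 had them below (17% and 17.5% of all). At an unadjusted p of 0.05, 6 were higher in BSG (2.04% of all). Of 24 for calcium handling, 9 had BSG above GSG and 1 had it below, against 17% and 17.5% of all.

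Array 2 of each strain, on which *Xist* differed between the 2 mice, enters each of these differences. With those 2 arrays left out, 1 array remains for each strain.

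**Figure D4:**
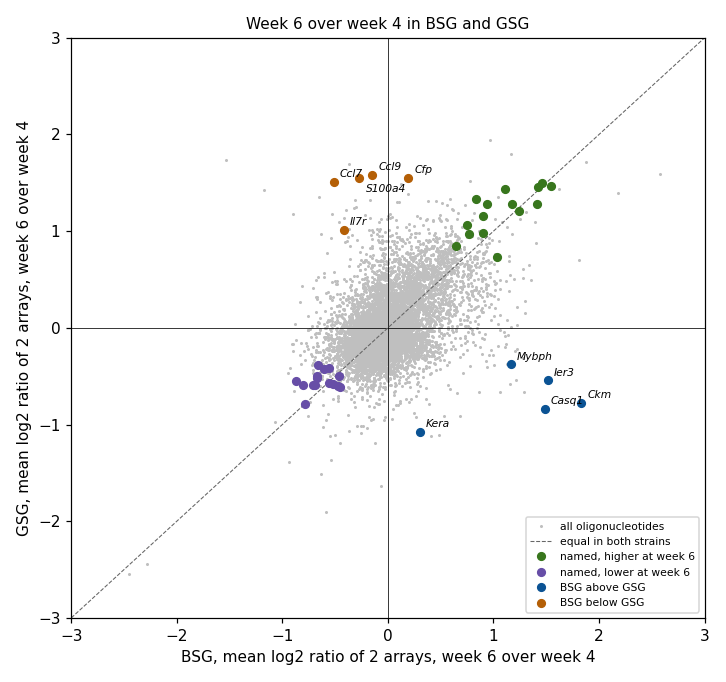
Mean log2 ratio of week 6 over week 4 of the 2 BSG arrays (x axis) against that of the 2 GSG arrays (y axis) for 8129 oligonucleotides, with named genes marked. *Hsd11b1*, *Slc1a5* and *Lipe* lie near the diagonal, *Ckm* and *Casq1* lie to the right of it and *Ccl7* and *Ccl9* above it.

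Ribosomal protein genes were more often higher than lower at 6 weeks, with larger ratios on the GSG arrays. Of 44 oligonucleotides, 23 were higher and 1 lower at an unadjusted p of 0.05, against 13.3% and 8.28% of all, and the median was 0.48. *Rps3* gave 1.26 and 0.47 in BSG and 1.43 and 0.58 in GSG, *Rpl6* gave 0.94 and 0.14 in BSG and 1.21 and 0.88 in GSG, and *Rpl7* gave 0.87 and 0.11 in BSG and 0.93 and 0.75 in GSG. In each of these genes GSG array 1 was the highest and BSG array 2 the lowest. Over the list, 26 oligonucleotides had both BSG arrays below both GSG arrays and 0 had them above, against 17.5% and 17% of all, and the medians were 0.11 in BSG and 0.83 in GSG. In the loop fit 10 were higher and 1 lower (7.11% and 4.49% of all). The median loop estimate was 0.19, because part of the ratio is constant over the 36 arrays.

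Proteasome and ubiquitin genes had the highest median after antigen presentation and the study's own inflammation genes among the lists described here, at 0.52. Of 29 oligonucleotides, 17 were higher and 0 lower at an unadjusted p of 0.05 (13.3% and 8.28% of all). On all 4 arrays 15 were above 0 (14.1% of all). *Psme1*, a subunit of the activator that interferon induces, gave 0.69 and 0.50 in BSG and 0.46 and 0.71 in GSG. *Psmd4*, the subunit that receives ubiquitin chains, gave 0.78 and 0.45 in BSG and 1.02 and 0.48 in GSG. The strains overlapped in both genes, and 3 oligonucleotides of the list had BSG above GSG while 3 had it below (17% and 17.5% of all). The median loop estimate was 0.39, with 11 higher and 0 lower at an unadjusted p of 0.05 in the loop fit, against 7.11% and 4.49% of all oligonucleotides.

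Enzymes that detoxify oxygen species and bind metals were higher in a similar share. Of 28 oligonucleotides for metallothioneins and antioxidants, 14 were higher and 1 lower at an unadjusted p of 0.05 (13.3% and 8.28% of all). The median was 0.40 and the loop median 0.26. In the loop fit 11 were higher and 2 lower (7.11% and 4.49% of all). *Sod1*, cytosolic superoxide dismutase, gave 1.42 and 0.46 in BSG and 1.08 and 0.59 in GSG. *Txn1*, thioredoxin, gave 1.02 and 0.17 in BSG and 1.02 and 0.91 in GSG. In both genes BSG array 2 was the lowest of the 4, and the loop estimates were 0.66 and 0.42.

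Of 30 oligonucleotides for glycolysis and glycogen, 12 were higher and 1 lower at an unadjusted p of 0.05 (13.3% and 8.28% of all). In the loop fit 4 were higher and 2 lower (7.11% and 4.49% of all), with a loop median of 0.10. *Ldha*, which makes lactate from pyruvate, gave 1.50 and 0.60 in BSG and 1.31 and 0.48 in GSG. *Pygm*, the glycogen phosphorylase of muscle, gave 1.05 and 0.87 in BSG and 1.51 and 0.35 in GSG. Relative to their loops these 2 genes were at 0.63 and 0.50. The respiratory chain and citric acid cycle list had 9 higher and 0 lower of 35 (13.3% and 8.28% of all), and a median of 0.29. In the loop fit 2 were higher and 0 lower (7.11% and 4.49% of all), with a loop median of 0.11. Both BSG arrays lay above both GSG arrays in 7 of the 35, a share near the 17% of all oligonucleotides. They lay below in 1 of the 35 (17.5% of all). At an unadjusted p of 0.05 the difference, BSG minus GSG, was above 0 in 4 and below 0 in 1 (2.04% and 3.53% of all). Its median was 0.34.

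Contractile genes of fast and slow fibres had medians of opposite sign over the 4 arrays. Among single arrays this held on BSG array 2 and GSG array 1 only. The fast list had medians of 0.592 and 0.753 there, and the slow list -0.543 and -0.781. On BSG array 1 both medians were above 0 (0.635 fast, 0.607 slow), and on GSG array 2 both were below 0 (-0.12 and -0.324). Of 12 oligonucleotides for fast fibres, 4 were higher and 0 lower at an unadjusted p of 0.05 (13.3% and 8.28% of all), with a median of 0.42. Of 11 for slow fibres, 1 was higher and 2 were lower, against the same shares, with a median of -0.11. *Tnnc2*, fast troponin C, gave 0.41 and 0.33 in BSG and 0.67 and 0.35 in GSG, but its constant was 0.59 and its loop estimate was -0.15. The fast list as a whole had 0 higher and 0 lower in the loop fit (7.11% and 4.49% of all) and a loop median of 0.11. *Tnnt1*, slow troponin T, gave -0.02 and -1.08 in BSG and -1.19 and -1.05 in GSG, with a loop estimate of -0.99. *Myoz2*, the myozenin of slow fibres, gave -0.22 and -0.92 in BSG and -1.37 and -0.40 in GSG, with a loop estimate of -0.92. The slow list had a loop median of -0.31, with 0 higher and 3 lower at an unadjusted p of 0.05 in that fit (7.11% and 4.49% of all). *Tpm3*, slow tropomyosin, gave 0.61 and 0.56 in BSG and 0.61 and -0.08 in GSG, so not every slow gene had a negative ratio.

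The partners of the mutated proteins varied in their ratios. Of 22 oligonucleotides for the dystrophin complex, 6 were higher and 1 lower at an unadjusted p of 0.05 (13.3% and 8.28% of all). In the loop fit 1 was higher and 2 lower (7.11% and 4.49% of all). The median was 0.16 and the loop median -0.07. *Sgca*, alpha-sarcoglycan, gave 1.02 and 0.88 in BSG and 1.11 and 0.23 in GSG, with a loop estimate of 0.42, and 1 oligonucleotide of *Dmd*, dystrophin, had a mean of 0.60 and a loop estimate of 0.24, while its second had a mean of -0.30.

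Matrix genes were mixed. Of 33 oligonucleotides for fibrillar collagens and matrix, 10 were higher and 5 lower at an unadjusted p of 0.05 (13.3% and 8.28% of all). The median was 0.11. In the loop fit 3 were higher and 5 lower (7.11% and 4.49% of all), with a loop median of 0.00. *Col6a1*, a chain of the collagen that surrounds fibres, gave 0.54 and 0.45 in BSG and 1.00 and 0.51 in GSG, with a loop estimate of 0.32. *Postn*, periostin of matrix under repair, gave -0.46 and -0.55 in BSG and -0.43 and -1.78 in GSG and was below 0 on all 4 arrays. Of 15 for the basement membrane, 3 were higher and 1 lower (13.3% and 8.28% of all). There *Col4a2* had a mean of 0.72 and a loop estimate of 0.35. Of 26 for matrix enzymes, 7 were higher and 1 lower, against the same shares. Among them *Loxl1*, which crosslinks elastin, had a mean of 0.63 and a loop estimate of 0.54.

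Growth factor genes contained 1 that passed the loop fit. *Igfals*, the subunit that keeps insulin-like growth factors in plasma, gave 0.79 and 0.56 in BSG and 0.73 and 0.68 in GSG. The spread was small (SD 0.10, n = 4), the mean was 0.69 (limma adjusted p = 0.0587) and the loop estimate 0.60 (adjusted p = 0.0179 in the limma fit). *Ghr*, the growth hormone receptor, gave 0.89 and 0.70 in BSG and 1.36 and 0.54 in GSG. *Igfbp6*, a binding protein that prefers insulin-like growth factor 2, gave 1.43 and 0.85 in BSG and 1.20 and 0.18 in GSG. Both genes were above 0 on all arrays, with GSG array 2 the lowest and loop estimates of 0.49 and 0.71. Over the 21 oligonucleotides of this list 5 were higher and 1 lower at an unadjusted p of 0.05 (13.3% and 8.28% of all). The list had a median of -0.02. *Meg3*, an imprinted RNA of developing muscle, gave -0.90 and -0.14 in BSG and -1.24 and -0.23 in GSG.

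Several other lists lay near or below the median of all oligonucleotides. Of 23 immediate early genes, 3 were higher and 6 lower at an unadjusted p of 0.05 (13.3% and 8.28% of all). On all 4 arrays 8 were below 0 (17.4% of all), and the median was -0.21. *Btg2*, an early gene that slows growth, gave -1.02 and -0.24 in BSG and -0.70 and -0.30 in GSG, with a loop estimate of -0.96. *Klf6*, a transcription factor of the same class, gave -0.72 and -0.26 in BSG and -0.47 and -0.34 in GSG. Time of day also differed between the ages. Among 16 oligonucleotides for the circadian clock, 1 was higher and 2 were lower (13.3% and 8.28% of all). *Dbp*, an output gene of the clock, gave 0.72 and 0.59 in BSG and 0.74 and 0.36 in GSG. *Per2*, a repressor of the clock, had a mean of -0.31.

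Of 18 oligonucleotides for Schwann cells and nerve, 9 were below 0 on all 4 arrays and 1 was above 0 (17.4% and 14.1% of all). The median was -0.16 and the loop median -0.17. *Sox10*, a transcription factor that defines Schwann cells, gave -0.27 and -0.26 in BSG and -0.39 and -0.41 in GSG. All 4 values were small, and 1 oligonucleotide of the list was higher and 3 were lower at an unadjusted p of 0.05 (13.3% and 8.28% of all). Of 12 blood cell genes, 1 was higher and 1 lower, against the same shares. *Hba-a1*, the alpha chain of haemoglobin, gave 0.82 and 0.10 in BSG and 0.82 and 0.13 in GSG, with a constant of 0.47 over the 36 arrays. Of 37 cell cycle genes 5 were higher and 2 lower, a share near that of all oligonucleotides (13.3% and 8.28%). Of 16 muscle regeneration genes 6 were higher and 1 lower, but 1 was higher and 0 lower in the loop fit. Of 19 vessel genes 5 were higher and 0 lower, and 2 higher and 1 lower in the loop fit. Of 19 interferon response oligonucleotides 2 were higher and 0 lower. For each of these lists the shares of all were 13.3% and 8.28%, and 7.11% and 4.49% in the loop fit.

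The neighbouring steps of the loops show where in the time course the step from 4 to 6 weeks lies. The same 4- and 6-week mice were also hybridised with mice of 2.5 and 8 weeks, so a value of 1 mouse enters both arrays it is on. By the same test on 4 arrays, 378 oligonucleotides were called between 1 and 2.5 weeks, 4 between 2.5 and 4, 7 between 4 and 6, 0 between 6 and 8, and 2 in each of the steps to 10, 12 and 14 weeks. The step from 14 to 20 weeks gave 0. Relative to week 1, *Hsd11b1* stood in BSG loop 1 at 0.63 at week 4, 2.24 at week 6, 1.63 at week 8 and 1.14 at week 20. In BSG loop 2 it was at 0.05, 1.14, 0.73 and 0.57 at these ages. In GSG loop 1 it was at 0.47, 2.24, 1.56 and 0.82, and in GSG loop 2 at 0.10, 1.17, 0.22 and 0.64. Week 6 was above weeks 4 and 8 in all 4 loops. Relative to the loops, the mean of week 8 over week 6 was -0.67 for *Hsd11b1*, -0.72 for *Trf*, -0.52 for *Lipe* and -0.51 for *Slc1a5*. These genes were chosen on the same 6-week mice that enter this step.

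**Figure D5:**
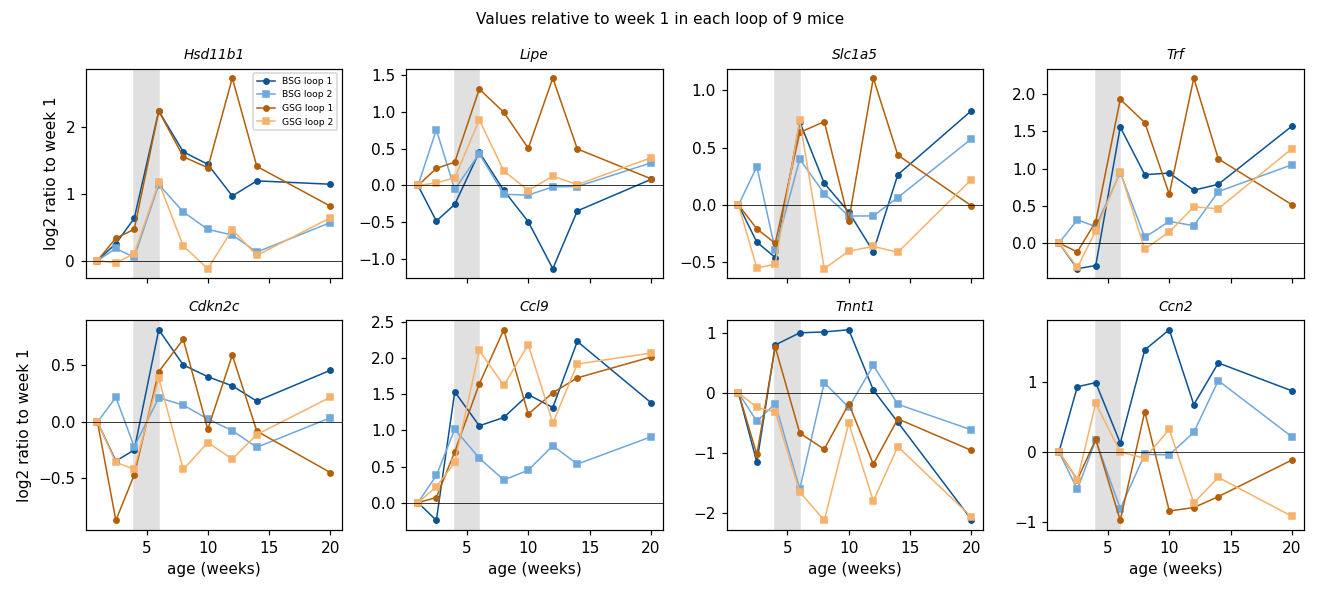
Log2 ratio to week 1 (y axis) at each age in weeks (x axis) in the 2 BSG and 2 GSG loops for 8 genes, with the interval from week 4 to week 6 shaded. *Hsd11b1*, *Lipe* and *Trf* lie higher at week 6 than at weeks 4 and 8 in all 4 loops, and *Ccn2* lies lower at week 6 than at week 4.

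Of the 15 named higher genes, 5 had their week 6 value above those of weeks 4 and 8 in all 4 loops (*Hsd11b1*, *Lipe*, *Orm1*, *Pcx* and *Trf*), 6 had it so in 3 loops and 4 in 2 or fewer. At week 20, 12 of the 15 were above week 4 in all 4 loops, with a median difference of 0.61. The genes were chosen on the same 4- and 6-week mice, which alone favours later ages above week 4 and week 8 below week 6. The counts in this paragraph were not set against the share of all oligonucleotides, and no later course is concluded from them. Relative to the loops, the median of week 4 over week 2.5 was -0.03 over the 15 higher genes, with 7 above 0 and 8 below 0, and that of week 8 over week 6 was -0.24, with 3 above 0 and 12 below 0. Over the 15 lower genes these medians were 0.02 for week 4 over week 2.5 and 0.0056 for week 8 over week 6. *Ccn2* had values of 1.34 and 0.78 for week 8 over week 6 in the BSG loops and of 1.56 and -0.09 in the GSG loops.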

How the data were processed

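Per the methods, the authors isolated RNA from quadriceps muscle, amplified it linearly, coupled the amino-allyl cRNA to Cy3 or Cy5, hybridised it to long mouse oligonucleotides printed in duplicate and scanned the arrays with GenePix. Before deposit the authors removed spatial, dye and across-array effects (all.norm, smida) and took log ratios of the channels, which are read here as log2. The sources used here give neither base nor direction. The base was taken as 2 because the values reach -12.02 and 11.52, and the direction as Cy5 over Cy3, which is likely from the labels. No filter was applied and 0 values were missing. The 2 spots of each of 8208 pairs were averaged, and 80 pairs of *Gapdh* control spots were averaged into 1 value. This gave 8129 oligonucleotides, of which 6752 have 1 gene symbol, 7 several and 1370 none.

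The 4 arrays were fitted with limma (version 3.58.1, R 4.3.3), as 1 mean and as 1 mean per strain. A second fit used all 36 arrays, with 8 ages relative to week 1 per strain and a dye term. Python (version 3.11.15) with matplotlib (version 3.10.9) drew the figures. The fits were tested on simulated data. Named genes were up to 15 per direction with the smallest p and 1 sign on all 4 arrays, up to 5 per direction for the strain difference, up to 4 per gene list and the genes of the paper. Where a gene has several oligonucleotides, the one with the smallest p is given. The comparison, lists and naming rule were chosen with earlier results of these data known. The alternatives were other normalizations, spots, array weights, variance models and sets of arrays, and those that use *Xist* were chosen after seeing the data. P-values of the mean measure the spread between 4 pairs of mice, some of which may be littermates, and the number of arrays limits the precision. P-values for each strain and for the difference measure the spread within strains. Those of the loop fit rest on the spread over all 36 arrays, with 19 residual degrees of freedom, and not on these 4 pairs alone.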

Additional observations from a re-analysis of the deposited data

Results flagged for a closer look

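Of 128 genes examined, 10 had 1 array far from the other 3, judged by its gap to the nearest array over the whole range of the 4 against Dixon's critical value. Chance gives about 1 in 20 such cases. BSG array 2 stood apart in 5 of them. *Vim*, vimentin of mesenchymal cells, was at 0.0401 there and between 1.20 and 1.22 on the others, and *Txn1* was at 0.171 against 0.913 to 1.02. *Btg1*, an early gene that slows growth, was at 0.066 on BSG array 2 and between 0.545 and 0.559 elsewhere. *Il6*, interleukin 6, was at -1.13 there against -0.378 to -0.262, and *Plagl1*, an imprinted transcription factor, at -1.07 against -0.37 to -0.229.

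On BSG array 1, *Tnnt1* was at -0.0193, whereas the other arrays lay between -1.19 and -1.05. On GSG array 1, *Col6a1* was at 1.00 against 0.449 to 0.536, and *Top1* at -0.727 against -0.476 to -0.469. On GSG array 2, *Postn* was at -1.78 against -0.551 to -0.432, and *Tpm3* at -0.076 against 0.563 to 0.607. The means of these 10 genes rest in part on that array.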

How the results depend on the processing

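The number of called oligonucleotides depended on how the arrays were scaled and the spread estimated. For the mean of the 4 arrays (7 called), the loop fit without a dye term gave 11 (11 higher, 0 lower), with it 41 (39 higher, 2 lower) and with *Xist* as a further covariate 43 (41 higher, 2 lower). Median centring gave 3, scaling 177, quantile normalization 253, the second spots 2, duplicateCorrelation on the spots 725 (657 higher, 68 lower) and oligonucleotides with concordant spots 28 (27 higher, 1 lower). Least squares without moderation gave 0 (1265 at an unadjusted p of 0.05), as did a trended robust prior (1717 unadjusted), oligonucleotides with 1 symbol only and the 2 arrays without a *Xist* difference (1278 unadjusted). For BSG alone (1 called), quantile normalization gave 19, the first spots 2, array weights 2 and duplicateCorrelation 53, whereas the loop fit without a dye term, centring, least squares, the robust prior, 1 symbol only and concordant spots gave 0. For GSG alone (3 called), the first spots gave 5, duplicateCorrelation 664, the loop fit with *Xist* 6, and centring, array weights and concordant spots 1, whereas quantile normalization, least squares, the robust prior and 1 symbol only gave 0. For BSG minus GSG (0 called, 453 unadjusted), quantile normalization gave 2 and duplicateCorrelation 28 (9 above, 19 below). With 1 array left out, the counts lay between 2 and 10 for the mean, 0 and 326 for BSG, 0 and 384 for GSG, and 0 and 76 for the difference. The cause was not tested.

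Of 129 gene values under these settings (2405 in all), 2102 kept their direction and side of the threshold, 263 gained a call, 32 lost one (*Hsd11b1*, *Slc1a5* and *Lipe*) and 8 turned sign. *Psmb9* and *Dlk1* were at 0.0402 and 0.0401 on the 2 arrays without a *Xist* difference. *Tnnc2* was at -0.15 in the loop fits without a dye term, with it and with *Xist*, and *Hba-a1* was at -0.0058, -0.0058 and -0.0054 in these 3 fits, which subtract the constant of the oligonucleotide. No paired analysis was possible because each array is itself 1 pair of mice, and equal loop numbers in BSG and GSG share no mouse.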
